A study of Mus musculus with 8 samples.

Results

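CD4+ T cells sorted as Foxp3 EGFP-positive were compared with CD4+ T cells sorted as EGFP-negative, both from mice with the wild-type (WT) Foxp3 allele linked to a reporter, enhanced green fluorescent protein (EGFP). The 4 arrays of this comparison, out of 8 in the series, were chosen by their labels alone: 3 were labelled WT EGFP-positive and 1 was labelled WT EGFP-negative. There was therefore 1 array on the negative side, and its own spread could not be measured. The other 4 arrays were 3 labelled mutant (delta) EGFP-positive and 1 labelled mutant EGFP-negative. These 4 entered the estimate of spread and the test of whether the EGFP difference was larger for 1 allele than for the other. They also entered the choice of 1 probe set per gene and the median above which folds are given. Per the design text, EGFP-positive cells came by flow cytometry from male mice hemizygous for the tagged X-linked gene. The sources used here give neither age nor strain nor treatment of the mice, and none says whether replicates were separate mice or pools. The p-values thus reflect only how far these samples varied, and that variation may be technical.

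Regulatory T cells are CD4+ T cells that restrain immune responses, and the transcription factor Foxp3 defines them. They carry the high-affinity receptor for interleukin-2 (IL-2), a growth factor they need but make little of themselves. They are known to act through the inhibitory receptor CTLA-4, through inhibitory cytokines and through enzymes that turn extracellular ATP into adenosine. A reporter read from the Foxp3 locus, such as EGFP here, lets these cells be sorted alive from conventional CD4+ T cells.

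Values are log2 of the deposited linear-scale intensity, a difference is the mean of the 3 EGFP-positive arrays minus the single EGFP-negative array, and values of the 3 EGFP-positive arrays stand in the order of replicates 1, 2 and 3. Each gene is represented by 1 probe set, that of highest mean over the 8 arrays, and a gene is called where limma's adjusted p was below 0.05. Folds are given only where both sides exceeded 5.76, the median over all probe sets, as detection calls were not used here. With bulk sorted cells, a change in the share of cells that express a gene and a change of RNA per cell cannot be told apart.

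The targeted gene was read first. The Foxp3 probe set stood at 4.75, 4.86 and 4.64 in the EGFP-positive arrays and at 4.52 in the EGFP-negative array, a difference of 0.24 (SE 0.20, limma adjusted p = 0.82). The EGFP-positive values lay just above the negative one and all 4 were low. In the arrays labelled mutant EGFP-positive the same probe set stood at 11.10, 11.51 and 11.21. This 1 probe set thus did not separate the WT arrays by their labels. The sources used here do not say where it lies relative to the EGFP tag or the mutation, and the cause of the low reading was not tested. On a list of regulatory T cell signature genes given below, drawn up with earlier results known, 26 of 32 were called higher and 0 lower. Every direction below rests on the labels. Flicr, a long noncoding RNA gene that overlaps Foxp3 and comes before it in the RefSeq gene table, stood at 6.6, 6.86 and 7.12 against 5.16, and was higher by 1.70 (SE 0.24, adjusted p = 0.02). It passed in 8 of 13 alternative settings, and was taken up after its values were seen. Of the other measured neighbours within 5 gene places on either side, Syp (1.61, adjusted p = 0.031) and Plp2 (1.29, 0.019) passed, while Ccdc22, which overlaps Foxp3 at its other end (0.20, 0.89), Ppp1r3f (0.42, 0.73) and Cacna1f (0.29, 0.76) did not.

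The arrays differed in other ways that touch the results. Median intensity lay between 53.5 and 54.7 in the 4 WT arrays. Across probe sets, EGFP-positive replicate 2 correlated at 0.98 with replicate 1 and at 0.9812 with replicate 3, and at 0.981 with the EGFP-negative array, while replicates 1 and 3 correlated at 0.9918 with each other. Xist, which is transcribed from the inactive X chromosome of female cells, stood at 6.18, 6.06 and 11.43 in the EGFP-positive arrays and at 9.81 in the EGFP-negative array. It was thus high in EGFP-positive replicate 3 and in the EGFP-negative array, which goes against a wholly male source. The Y-linked gene Eif2s3y stood at 10.01, 10.12, 8.80 and 10.09 in the same order, and Kdm5d at 7.99, 8.48, 6.85 and 8.47, lower in replicate 3 and present in all 4. The leading digits of the sample titles were 76 for EGFP-positive replicate 1 and for both EGFP-negative arrays, 82 for replicate 2 and 85 for replicate 3, and the labels do not say what these digits stand for. Results are given also without replicate 2 and without replicate 3. Both fits keep the EGFP-negative array, in which Xist was high. Without replicate 3 the EGFP-positive arrays left are those low in Xist (6.18 and 6.06). These fits thus cannot separate a difference in the source of the cells from the EGFP difference.

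Marker genes of the sorted cells and of other cells were read on the same arrays. Of 7 measured CD4 T cell markers, 0 were called in limma's test and 1 was higher at an unadjusted p under 0.05. Cd4 stood at 11.07, 11.20 and 11.15 against 11.42, and the T cell receptor subunit Cd3e at 12.68, 12.81 and 12.77 against 12.66, so all 4 arrays read as CD4 T cells. Of 16 B cell, 6 plasma cell, 21 myeloid, 3 gamma delta T cell, 9 erythroid and platelet, 10 stroma and 2 CD8 markers, 0 were called. At an unadjusted p under 0.05, 3 B cell, 1 plasma cell, 2 myeloid and 1 CD8 markers were lower, and 1 plasma cell and 2 myeloid markers were higher. Among all genes, 1984 of 18193 had an unadjusted p under 0.05 in limma's test, both directions together. The mean of the plasma cell markers was 7.25, 7.36 and 8.01 against 8.15, and that of the myeloid markers 6.03, 6.03 and 6.46 against 5.89. Jchain, the joining chain of secreted antibodies, stood at 7.72, 8.45 and 10.34 against 10.11, and Csf1r, the macrophage growth factor receptor, at 8.36, 6.81 and 9.85 against 6.16. The plasma cell mean and Jchain were thus high in the same arrays as Xist, and Csf1r was highest in replicate 3. Not every plasma cell marker followed Xist. Xbp1 stood at 11.31, 11.50 and 11.54 against 10.75, lowest in the EGFP-negative array. Igha stood at 7.43, 7.99 and 8.12 against 9.87, with replicate 3 close to replicate 2. The part of these markers in the results was not tested. Of the natural killer (NK) cell markers 1 of 9 (Klrd1), of the NKT cell markers 1 of 3 (Il4) and of the immature thymocyte markers 1 of 9 (Themis) were called lower.

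Over all genes, few were called, and most of these differed by at least 2-fold. With 1 negative array the test reached mainly large differences. The smallest called difference was 0.84, and in simulated data the fit recovered 20% of probe sets changed by 1 log2 unit. Smaller differences may thus have been missed. Of 18193 genes tested, 273 were called (1.5%), 186 of them higher (1.02%) and 87 lower (0.478%) in the EGFP-positive cells, and 259 of the 273 differed at least 2-fold. By probe set, 496 of 45037 were called (1.1%), 318 higher (0.706%) and 178 lower (0.395%). The median difference over all genes was -0.02. All 3 EGFP-positive arrays lay on 1 side of the EGFP-negative array for 273 of the 273 called genes, against 55.1% of all genes. By array, the median difference of the higher genes was 1.61, 1.81 and 1.67, and that of the lower genes -1.59, -1.55 and -1.53. The test favours genes with a small spread among these same arrays, so neither value is a separate check of the calls. At least 2-fold differences in all 3 arrays, with no test, were seen for 226 genes upward and 83 downward.

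**Figure D1:**
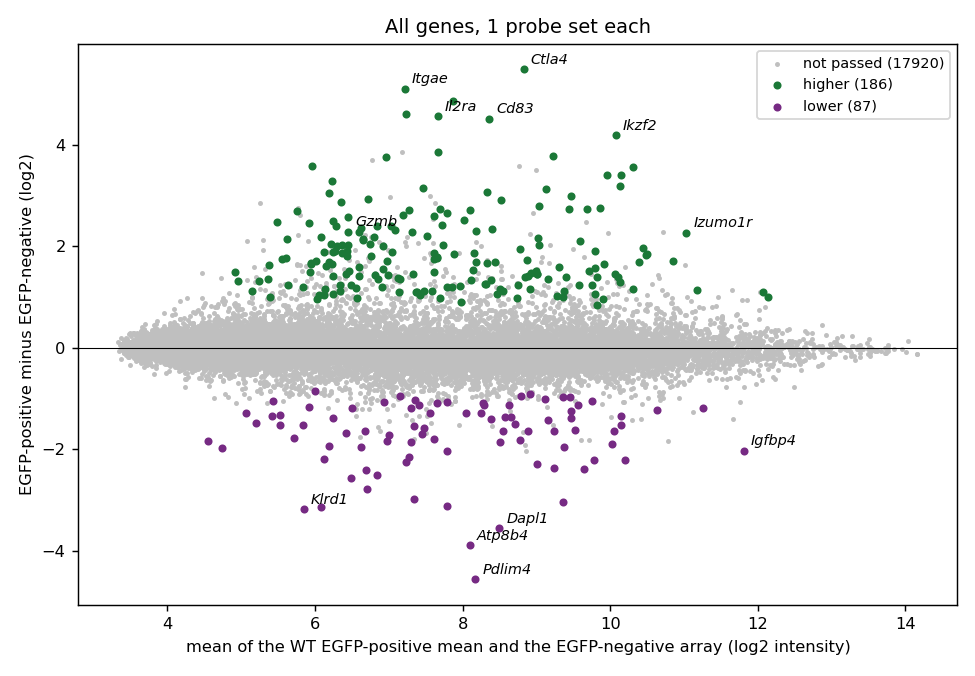
Each point is 1 gene, with the mean of the EGFP-positive mean and the EGFP-negative value (log2 intensity) on the horizontal axis and the EGFP-positive minus EGFP-negative difference (log2) on the vertical axis; green marks the 186 genes called higher, purple the 87 called lower and grey the rest. Most genes lie near 0 at every level, and the called genes reach 5.48 for Ctla4 and -4.56 for Pdlim4.

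The number of calls depended strongly on which arrays entered the fit and on whether the block was added. Without replicate 2 the count was 1193 probe sets, without replicate 3 it was 259, and without replicate 1 it was 287. It was 83 with the digits of the titles as a block, 125 from the 4 WT arrays alone and 271 with replicate 1, whose title digits match those of the EGFP-negative array, as the only EGFP-positive array. Of the 273 called genes, 273 were also called without replicate 2, 45 with the block, 73 from the WT arrays alone and 33 under each of the 13 alternatives.

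The lists described next hold genes known from regulatory T cells or from T cell biology, and they were drawn up with earlier results of these arrays known, so their direction is not independent evidence. For each, the count of members called is read against the 1.02% of all genes called higher and the 0.478% called lower. Counts at an unadjusted p under 0.05 in limma's test stand beside 1984 of all 18193 genes, both directions together.

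**Figure D2:**
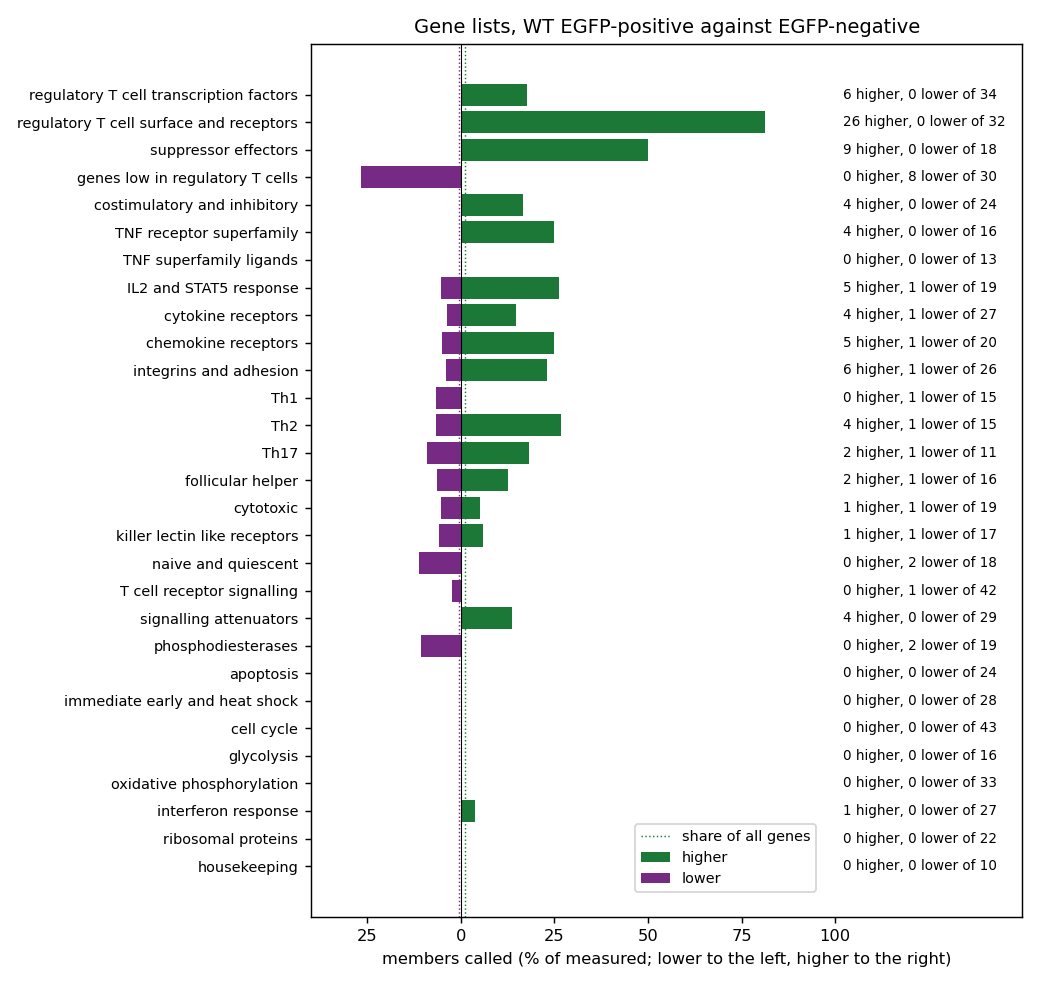
Bars give the share of measured members of each gene list called higher (green, to the right) or lower (purple, to the left), in percent, with dotted lines at the shares of all genes (1.02% and 0.478%) and the counts at the right edge. The regulatory T cell surface list has the longest bar (26 of 32), and the ribosomal protein, housekeeping, cell cycle and oxidative phosphorylation lists have none.

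Transcription factors linked to regulatory T cells were in part higher. Of 34 measured, 6 were called higher and 0 lower, with a median difference of 0.67 (12 and 1 without replicate 2, 4 and 0 without replicate 3; 4 of the 31 members not named by earlier results). Ikzf2, which encodes the Ikaros family factor Helios, stood at 12.26, 12.13 and 12.09 against 7.98, 18.1-fold higher (difference 4.18, SE 0.15, adjusted p = 0.00018), and its other 2 probe sets differed by 3.10 and 4.01. Its relative Ikzf4, which encodes Eos, a partner of Foxp3, stood at 8.87, 8.93 and 9 against 6.51 (difference 2.42, SE 0.20, 0.003). For both, the 3 EGFP-positive arrays lay within 0.2 of each other and far above the negative array, and both passed in 13 of 13 alternatives. Ikzf3, the third member of the family on the list, differed by 1.06 (0.079).

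Other factors were called on less even values. Plagl1, a zinc finger factor, stood at 10.27, 8.10 and 10.23 against 4.94 (difference 4.6, SE 0.76, adjusted p = 0.037), while its other 2 probe sets differed by 0.58 and 1.38. Its call was lost whenever an EGFP-positive array of either allele other than WT replicate 2 was left out (0.07 to 0.10), and without WT replicate 2 it was 5.31 (0.00017). Maf, which drives Il10 in several T cell types, stood at 11.31, 11.84 and 11.13 against 9.58 (1.85, SE 0.28, 0.026), with 5 further probe sets between 0.09 and 2.40. It did not pass without WT replicate 1 (0.069), mutant replicate 1 (0.073) or mutant replicate 2 (0.054). Ahr, the aryl hydrocarbon receptor, was on the Th17 list and not on this one, and its values were more even. It stood at 7.11, 7.23 and 7.54 against 5.30 (2, 0.0057; 11 of 13 alternatives), although a further probe set differed by 0.12. Outside the naming rule, and taken up after their values were seen, Gata1 (1.81, 0.028; 7 of 13 alternatives) and Myb (1.46, 0.027; 6 of 13) were also called.

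Other factors on this list did not pass, among them some known from conventional and naive T cells. Satb1, a chromatin organiser repressed in regulatory T cells, stood at 12.16, 11.80 and 11.83 against 12.55 (-0.62, adjusted p = 0.31). Lef1, a factor of naive T cells, stood at 10.39, 10.03 and 10.12 against 11.13 (-0.94, 0.11). Tbx21, the Th1 factor T-bet, stood at 6.02, 6.50 and 5.52 against 7.11 (-1.10, 0.39), and Gata3, the Th2 factor, at 9.41, 9.39 and 9.64 against 8.86 (0.61, 0.69). The 3 EGFP-positive arrays lay below the negative one for Satb1, Lef1 and Tbx21, and above it for Gata3. Irf4, a factor of activated and effector regulatory T cells, was taken up after its values were seen: it stood at 9.49, 8.34 and 9.82 against 7.14 (2.08, 0.16) and passed without replicate 2 (2.52, 0.0033).

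A list of surface molecules, receptors and other signature genes of regulatory T cells had the largest share of calls. Of 32 measured, 26 were higher and 0 lower, 81.2% of the list against 1.02% of all genes, with a median difference of 2.60 (28 and 0 without replicate 2, 21 and 0 without replicate 3). Of the 23 members not named by earlier results 17 were called, with a median of 2.27. The list also holds genes whose products are not on the surface, among the called ones Dusp4, Socs2, Capg, S100a6, Swap70 and Ecm1. The 6 not called were Ptger2 (2.23, adjusted p = 0.19), Lag3 (1.71, 0.068), Pdcd1 (1.59, 0.17), Il10ra (0.99, 0.28), Cd2 (0.51, 0.34) and Cd5 (0.35, 0.51), which are given here to complete the list.

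The receptor for IL-2 was higher in 2 of its chains. Il2ra, the alpha chain (CD25) by which regulatory T cells are commonly sorted, stood at 10, 10.02 and 9.82 against 5.38 (difference 4.56, SE 0.20, adjusted p = 0.00048), and its other probe set differed by 3.45. Il2rb, the signalling beta chain, stood at 10.89, 11.53 and 10.75 against 8.32, 6.67-fold higher (2.74, SE 0.30, 0.0077). No EGFP-positive array came near the negative one in either gene. Il2 itself stood at 4.12, 4.16 and 4.31 against 4.94 (-0.74, SE 0.20, 0.21) and did not pass. Il7r, the receptor chain for IL-7 that is low on regulatory T cells, stood at 10.97, 11.34 and 10.58 against 12.37 (-1.41, SE 0.64, 0.57). It lay below the negative array in all 3 but did not pass, and its other probe set differed by -1.80.

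Ctla4, the inhibitory receptor that takes the ligands of CD28 away from antigen-presenting cells, had the largest difference of all called genes. It stood at 12.33, 10.12 and 12.25 against 6.09, 44.6-fold higher (difference 5.48, SE 0.87, adjusted p = 0.031). Replicate 2 was over 2 log2 units below the other EGFP-positive arrays and 4 above the negative array. The call was lost without WT replicate 1 (5.10, 0.087), WT replicate 3 (5.14, 0.096), mutant replicate 1 (0.09) or mutant replicate 2 (0.064), and without WT replicate 2 it was 6.2 (0.0018). Among other costimulatory and inhibitory molecules, Icos, a relative of CD28, stood at 11.30, 11.08 and 11.34 against 9.55 (1.69, SE 0.16, 0.0048). Of the 24 measured genes of that list 4 were higher and 0 lower (6 and 0 without replicate 2, 2 and 0 without replicate 3), with a median of 0.33. The other 2 called were Slamf1, a self-ligand receptor (1.45, 0.04), and Pdcd1lg2, a ligand of PD-1 (1.40, 0.019). Slamf1 was lost whenever an EGFP-positive array other than WT replicate 2 was left out (0.05 to 0.13), and Pdcd1lg2 without WT replicate 1 (0.065), mutant replicate 1 (0.051) or mutant replicate 2 (0.052).

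Receptors of the tumour necrosis factor (TNF) family, which costimulate regulatory T cells, were called in 4 of 16 cases, all higher (5 without replicate 2, 3 without replicate 3; median 0.35). Tnfrsf4 (OX40) stood at 11.67, 12.02 and 11.84 against 8.43, 10.6-fold higher (difference 3.41, SE 0.19, adjusted p = 0.00092). Tnfrsf9 (4-1BB) stood at 9.28, 9.51 and 9.59 against 6.74 (2.72, SE 0.18, 0.0017), with 2 further probe sets at 0.03 and 3.91. Tnfrsf18 (GITR) stood at 11.32, 11.57 and 11.39 against 9.46 (1.96, SE 0.23, 0.0087). In these 3 genes the EGFP-positive arrays lay close together and apart from the negative array. Tnfrsf1b, which encodes TNF receptor 2, stood at 9.53, 10.04 and 9.70 against 7.81 (1.94, SE 0.32, 0.037), and it did not pass without WT replicate 1 (0.075), WT replicate 3 (0.11) or mutant replicate 1 (0.10). The 13 ligands of the family had 0 calls in limma's test, with 3 higher and 3 lower at an unadjusted p under 0.05; Lta, lymphotoxin alpha (1.87, 0.062), and Cd40lg, the helper ligand for B cells (-0.84, 0.12), came closest.

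Further surface genes of regulatory T cells had equally separate values. Gpr83, an orphan-type G protein-coupled receptor, stood at 11.42, 12.24 and 11.50 against 8.54 (difference 3.18, adjusted p = 0.0097). Izumo1r, folate receptor 4, stood at 12.21, 12.16 and 12.12 against 9.90, 4.81-fold higher (2.27, SE 0.16, 0.002), with the 3 EGFP-positive arrays within 0.1 of each other. Nrp1, neuropilin-1, stood at 11, 11.64 and 10.70 against 7.34, 13.7-fold higher (3.78, SE 0.39, 0.006). Klrg1, a lectin-like inhibitory receptor of differentiated T cells, stood at 9.45, 9.76 and 9.54 against 5.74 (3.85, SE 0.30, 0.0022). Cd83, an activation marker, stood at 10.60, 10.32 and 10.92 against 6.10, 22.8-fold higher (4.51, SE 0.25, 0.00092). Nrp1, Klrg1, Cd83, Izumo1r, Tnfrsf4, Tnfrsf9 and Il2ra passed in 13 of 13 alternatives, and Gpr83 and Tnfrsf18 in 11 of 13.

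**Figure D3:**
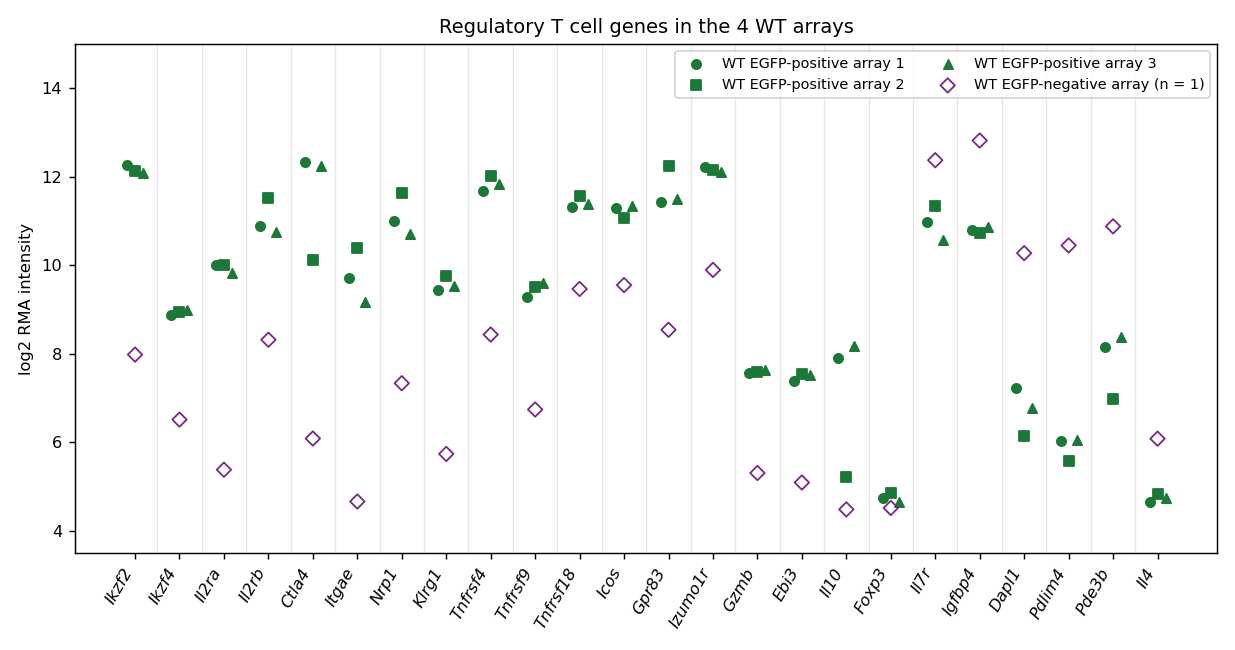
Log2 intensity of 24 genes in the 3 WT EGFP-positive arrays (filled circle, square and triangle for replicates 1, 2 and 3) and the WT EGFP-negative array (open diamond, n = 1). The filled points lie above the diamond from Ikzf2 to Ebi3, spread widely for Ctla4 and Il10, overlap it nearly for Foxp3 (4.64 to 4.86 against 4.52), and lie below it from Il7r to Il4.

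Genes that respond to IL-2 through the factor STAT5 were called in 6 of 19 cases, 5 higher and 1 lower, with a median of 0.50 (7 and 1 without replicate 2, 5 and 0 without replicate 3). Besides Il2ra and Il2rb these were the feedback inhibitors Socs2 and Cish, the granule protease Gzmb and, lower, the kinase Pim2. Socs2 stood at 9.58, 10.22 and 9.79 against 6.80 (difference 3.07, SE 0.24, adjusted p = 0.0026), with 5 further probe sets between 0.13 and 3.08. Cish stood at 10.75, 10.64 and 10.84 against 8.83, 3.77-fold higher (1.91, SE 0.18, 0.0045). Both inhibitors lay above the negative array by more than the range of the EGFP-positive arrays. Pim2, taken up after its values were seen, stood at 8.32, 8.28 and 8.36 against 9.26 (-0.95, 0.027; 5 of 13 alternatives). Its relative Pim1 stood at 12.30, 10.93 and 12.33 against 9.57 (2.28, 0.16) and passed without replicate 2 (2.74, 0.0058).

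Promoter sequences were taken from RefSeq (GRCm38.p6), 250 bases before to 50 after each gene's start, for 42 of the 65 called genes named by the rule. The letters TTCNNNGAA, the spaced palindrome that STAT factors bind, and TGTTTAC, the core of forkhead factors such as Foxp3, were searched on both strands. At least 1 TTCNNNGAA lay in 8 of the 42 genes, and at least 1 TGTTTAC in 2. The promoters of Cish and Tnfrsf18, both higher, are shown for the first letters and those of Gbp3, higher, and Dapl1, lower, for the second (Gbp3 has a further start, not shown); each is written 5′ to 3′ on the + strand with the matches in capitals.
Cish, chr9:107296409-107296708: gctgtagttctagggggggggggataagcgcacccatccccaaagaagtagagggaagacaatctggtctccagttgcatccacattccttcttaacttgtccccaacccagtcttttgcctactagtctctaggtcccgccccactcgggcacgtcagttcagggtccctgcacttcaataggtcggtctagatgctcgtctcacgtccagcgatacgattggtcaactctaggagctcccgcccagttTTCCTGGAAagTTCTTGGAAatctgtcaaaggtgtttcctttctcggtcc
Tnfrsf18, chr4:156026072-156026371: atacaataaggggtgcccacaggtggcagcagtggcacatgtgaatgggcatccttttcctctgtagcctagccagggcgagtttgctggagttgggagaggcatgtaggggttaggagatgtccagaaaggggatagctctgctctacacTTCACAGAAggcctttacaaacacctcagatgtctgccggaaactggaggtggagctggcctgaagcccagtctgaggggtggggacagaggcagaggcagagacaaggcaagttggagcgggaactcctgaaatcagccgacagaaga
Gbp3, chr3:142559794-142560093: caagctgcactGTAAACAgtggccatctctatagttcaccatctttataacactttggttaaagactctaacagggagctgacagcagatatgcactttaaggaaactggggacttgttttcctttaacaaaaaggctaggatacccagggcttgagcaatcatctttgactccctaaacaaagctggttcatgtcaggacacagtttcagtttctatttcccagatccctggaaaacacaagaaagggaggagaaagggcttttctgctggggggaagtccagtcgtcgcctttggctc
Dapl1, chr2:59484403-59484702: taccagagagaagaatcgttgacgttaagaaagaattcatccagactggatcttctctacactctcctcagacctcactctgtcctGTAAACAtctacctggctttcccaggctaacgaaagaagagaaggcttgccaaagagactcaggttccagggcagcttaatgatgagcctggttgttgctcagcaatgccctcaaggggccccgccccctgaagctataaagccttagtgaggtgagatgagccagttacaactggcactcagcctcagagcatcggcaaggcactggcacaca
Counting the start as position 1, the Cish matches begin at 1 and 12 and do not overlap, that of Tnfrsf18 begins at -99, and the forkhead letters, read on the opposite strand as GTAAACA, begin at -239 in Gbp3 and at -164 in Dapl1. Over all measured genes with an entry, 8.57% of 14452 held TTCNNNGAA, against 14.8% of 142 genes called higher and 9.68% of 62 called lower. For TGTTTAC the shares were 3.40%, 5.63% and 3.23%, and for TGANTCA, the AP-1 letters, 7.54%, 10.6% and 6.45%. A match describes the letters in this window and is not a site of binding.

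Genes of suppressor function were called in 9 of 18 cases, all higher, with a median of 1.73 (10 higher and 1 lower without replicate 2, 7 and 0 without replicate 3; 7 of the 16 members not named by earlier results). Both enzymes that degrade extracellular nucleotides to adenosine were among them. Entpd1 (CD39) stood at 7.59, 8.06 and 7.53 against 5.59 (difference 2.14, SE 0.24, adjusted p = 0.008). Nt5e (CD73) stood at 9.80, 10.23 and 9.90 against 7.07, 7.52-fold higher (2.91, SE 0.24, 0.0028), but its other 2 probe sets differed by -0.05 and 1.62. Ebi3, a subunit of the inhibitory cytokine IL-35, stood at 7.39, 7.54 and 7.52 against 5.09 (2.39, SE 0.22, 0.0044), while its partner Il12a differed by -0.02 (0.99). Gzmb, granzyme B, stood at 7.56, 7.59 and 7.64 against 5.31 (2.29, SE 0.17, 0.0022), with the EGFP-positive arrays within 0.1 of each other. Penk, the opioid peptide precursor, stood at 9.05, 9.67 and 9.12 against 6.76 (2.52, SE 0.28, 0.0077).

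Other suppressor genes had calls that were lost in more settings, or did not pass. Itgb8, an integrin chain that activates latent TGF-beta, stood at 7.47, 8.55 and 7.13 against 4.67 (difference 3.05, adjusted p = 0.027) and was lost without WT replicate 1 (0.069) or mutant replicate 1 (0.079), 2 (0.065) or 3 (0.056). Lgals1, galectin-1, stood at 12.57, 12.58 and 12.74 against 11.64 (0.99, 0.029) and was lost whenever an EGFP-positive array other than WT replicate 2 was left out (0.053 to 0.094). Il10, the inhibitory cytokine, stood at 7.92, 5.22 and 8.19 against 4.48 (2.62, SE 1.10, 0.51). Replicate 2 read near the negative array, and without it the difference was 3.57 (0.022). Fgl2, a secreted inhibitor, ran the other way, at 5.69, 7.71 and 5.38 against 5.05 (1.21, SE 0.77, 0.73), with replicate 2 highest. Tgfb1 differed by 0.21 (0.80), and Prf1, the pore-forming partner of granzymes, by -1.41 (0.14).

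Some chemokine receptors were called higher and 1 lower. Of 20 measured, 5 were higher and 1 lower (6 and 1 without replicate 2, 1 and 1 without replicate 3), with a median of 0.42. Ccr6 stood at 8.91, 9.63 and 8.81 against 6.46, 6.31-fold higher (difference 2.66, SE 0.32, adjusted p = 0.0099). Ccr8, typical of tissue regulatory T cells, stood at 6.77, 6.23 and 7.18 against 4.24 (2.48, 0.026), Ccr2 at 8.18, 8.84 and 8.35 against 6.18 (2.28, 0.021), Ccr4, a skin-homing receptor, at 6.68, 6.98 and 6.66 against 5.13 (1.65, 0.017), and Ccr3 at 5.31, 5.66 and 6.03 against 4.17 (1.5, 0.047). All 3 EGFP-positive arrays lay above the negative array in each. The calls of these last 4 depended on single arrays. Without WT replicate 3, the adjusted p was 0.059 for Ccr8, 0.07 for Ccr2, 0.052 for Ccr4 and 0.07 for Ccr3. It was at or above the threshold for Ccr8 (0.086) and Ccr4 (0.05) without WT replicate 1, for Ccr8 (0.078), Ccr2 (0.065) and Ccr3 (0.12) without mutant replicate 1, and for Ccr3 without mutant replicate 2 (0.10) or 3 (0.08). Cxcr6, a receptor of effector and tissue T cells, stood at 5.71, 6.23 and 6.75 against 9.35, 8.66-fold lower (-3.11, SE 0.35, 0.0084). Ccr7, the lymph node homing receptor, stood at 12.82, 11.24 and 12.75 against 12.21 (0.07, 0.99), with the negative array inside the range of the EGFP-positive arrays.

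Among 26 integrin and adhesion genes 6 were higher and 1 lower (6 and 2 without replicate 2, 4 and 1 without replicate 3), with a median of 0.15. Itgae (CD103), which binds E-cadherin on epithelium, stood at 9.72, 10.39 and 9.18 against 4.66 (difference 5.10, SE 0.51, adjusted p = 0.0057), and its other probe set differed by 4.32. Its partner chain Itgb7 differed by 0.11 (0.93). Alcam, a ligand of CD6, stood at 6.79, 7.27 and 7.07 against 5.35 (1.70, 0.0091). Itgb3, the beta chain of the vitronectin receptor, stood at 6.78, 6.80 and 6.72 against 8.81, 4.10-fold lower (-2.04, SE 0.22, 0.0077). Cytokine receptors beyond those for IL-2 were called for Il1r2, the decoy receptor for IL-1 (8.02, 7.52 and 7.87 against 5.44; 2.36, 0.012; 0.052 without WT replicate 3), for Tgfbr1 (1.56, 0.0093; taken up after its values were seen) and, lower, for Tgfbr3, the TGF-beta coreceptor betaglycan (9.12, 8.86 and 9.34 against 11.31; -2.20, 0.0078). In all, 4 of 27 cytokine receptors were higher and 1 lower (5 and 1 without replicate 2, 3 and 1 without replicate 3; median 0.29).

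Inhibitors of signalling formed a group in which replicate 2 stood apart. Of 29 measured, 4 were higher and 0 lower (median 0.61), against 10 and 0 without replicate 2 and 3 and 0 without replicate 3. Their mean was 9.48, 8.66 and 9.56 against 8.24. Rgs1, which damps G protein signalling, stood at 12.32, 11.71 and 12.24 against 8.52, 11.9-fold higher (difference 3.57, SE 0.33, adjusted p = 0.0044). Dusp4, a phosphatase of MAP kinases, stood at 10.97, 9.01 and 10.91 against 5.43 (4.87, SE 0.68, 0.019), and was lost without WT replicate 1 (0.051) or 3 (0.059) or mutant replicate 1 (0.059) or 2 (0.052). Rgs16, taken up after its values were seen, stood at 9.35, 6.84 and 9.65 against 4.92 (3.69, 0.19; 0.00068 without replicate 2).

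Further genes had differences as large. By the naming rule, the highest also held Ntn4, a secreted netrin (8.80, 8.91 and 8.82 against 5.09; 3.75, adjusted p = 0.0017), Arhgap20 (7.76, 7.59 and 7.87 against 4.17; 3.57, 0.00092), and S100a4, a calcium-binding protein of memory T cells (11.54, 12.09 and 11.32 against 8.25; 3.39, 0.0028). Cyp4f18, a cytochrome P450, stood at 7.82, 8.19 and 7.59 against 4.59 (3.28, 0.0022), but its other probe set differed by -0.08. Gbp3, a guanylate-binding protein and the only 1 of 27 interferon response genes called, stood at 10.96, 11.26 and 10.68 against 7.97 (3.0, 0.0022), while that list had a median of 0 and 3 members lower at an unadjusted p under 0.05. After their values were seen, further calcium-dependent and membrane scaffold genes were read: S100a6 (2.73, 0.0044) and Capg (2.74, 0.0026), both counted in the surface list, Anxa2 (2.02, 0.008), Anxa4 (2.18, 0.011), Ahnak (1.82, 0.027) and S100a10 (1.09, 0.038) were higher, while Anxa1 (-0.10, 0.98), Anxa5 (0.09, 0.93) and Anxa6 (-0.05, 0.98) did not pass. Ahnak passed in 8 of 13 alternatives and S100a10 in 5.

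The genes listed as low in regulatory T cells were lower here in 8 of 30 cases and higher in 0, against 0.478% of all genes lower, with a median of -0.68 (0 higher and 9 lower without replicate 2, 0 and 7 without replicate 3; 3 of the 25 members not named by earlier results). Pdlim4, a cytoskeletal adaptor, stood at 6.04, 5.59 and 6.05 against 10.45, 23.5-fold lower (difference -4.56, SE 0.22, adjusted p = 5e-04). Dapl1, a gene of naive T cells, stood at 7.24, 6.14 and 6.78 against 10.27, 11.8-fold lower (-3.56, SE 0.38, 0.0068). Igfbp4, a binding protein of insulin-like growth factors, stood at 10.79, 10.73 and 10.86 against 12.82, 4.07-fold lower (-2.03, SE 0.22, 0.0077), and 5 further probe sets differed by -2.85 to -2.14. The EGFP-positive arrays of these 3 genes lay together below the negative array. Vipr1, a receptor of vasoactive intestinal peptide, stood at 5.24, 4.94 and 5.46 against 7.78 (-2.56, 0.0033). Pde3b, a phosphodiesterase that degrades cyclic AMP, stood at 8.16, 6.98 and 8.37 against 10.88 (-3.04, 0.04), and its call was lost whenever an EGFP-positive array other than WT replicate 2 was left out (0.059 to 0.092; -2.62, 0.0057 without that array). Of 19 phosphodiesterases, Pde5a, which degrades cyclic GMP (5.44, 5.16 and 5.36 against 8.09; -2.77, 0.0022), was the only other called.

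The remaining largest differences downward included an NK receptor chain and a segment of the T cell receptor gamma chain. Klrd1, the CD94 chain of NK receptors, stood at 4.13, 4.16 and 4.49 against 7.43 (difference -3.17, SE 0.37, adjusted p = 0.0093). Trgv1, a variable segment of the gamma chain of the T cell receptor, stood at 5.42, 5.79 and 5.25 against 7.89 (-2.41, 0.0047). Trgv4, a further gamma segment taken up after its values were seen, stood at 4.84, 5.45 and 5.35 against 7.15. It was also called lower (difference -1.94), and passed in 11 of 13 alternatives. The single negative array was the high one in each of these. Beside them, the mean of the NK cell markers was 5.28, 5.51 and 5.58 against 5.76, and that of the NKT cell markers 5.03, 5.05 and 5.11 against 5.76. That of the gamma delta T cell markers, of which 3 of 7 were measured, was 5.29, 5.41 and 5.60 against 5.40. The part of such cells in the result was not tested. Zbtb16, which defines NKT cells, stood at 5.63, 5.59 and 5.74 against 6.21 (-0.55, 0.26). Atp8b4, a lipid flippase (-3.88, 0.0044; a further probe set at -1.60), Lrrc75b (-3.13, 0.0019), Lypd6b (-2.97, 0.0074), Enc1 (-2.38, 0.0084; others at -2.04 and -0.13), Pxylp1 (-2.37, 0.0041; others between -1.72 and 0.06) and the semaphorin Sema4a (-2.29, 0.017) were also lower. Sema4a was lost without WT replicate 1 (0.056) or 3 (0.06). The transporter Slc16a5 (-2.51, 0.044; a further probe set at -0.17) was lost whenever an EGFP-positive array other than WT replicate 2 was left out (0.056 to 0.14).

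Among the cytokine genes of helper cells, Il4 and Il21 passed the test, both lower in the EGFP-positive arrays. Il4, the Th2 cytokine, stood at 4.65, 4.84 and 4.73 against 6.08 (difference -1.34, SE 0.16, adjusted p = 0.0095), and Il21, a cytokine of follicular helper and Th17 cells, at 4.27, 4.45 and 4.56 against 5.70 (-1.28, SE 0.17, 0.015), although a further probe set of Il21 differed by 0.04. Both lost their call with the 4 WT arrays only (0.077 for Il4 and 0.11 for Il21), with the title digits as a block (0.11 and 0.14) and with replicate 1 as the only EGFP-positive array (0.056 and 0.054). Ifng stood at 6.71, 5.44 and 6.58 against 6.85 (-0.61, 0.81) and Il17a at 5.23, 5.74 and 5.79 against 5.76 (-0.18, 0.92), so the negative array lay just above or among the EGFP-positive ones. Of 15 Th1 genes 0 were higher and 1 lower (Cxcr6), of 15 Th2 genes 4 higher (Ccr8, Maf, Ccr4 and Ccr3) and 1 lower (Il4), of 11 Th17 genes 2 higher (Ccr6 and Ahr) and 1 lower (Il21), and of 16 follicular helper genes 2 higher (Maf and Icos) and 1 lower (Il21). Without replicate 3 the Th2 count was 1 and 1. The cytokines called on these lists, Il4 and Il21, were lower. Of 19 cytotoxic genes Gzmb was higher and Klrd1 lower, and of 17 killer lectin-like receptors Klrg1 was higher and Klrd1 lower.

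Of 18 genes of naive and resting cells 0 were higher and 2 lower (Dapl1 and Igfbp4), which is 11.1% called against 1.5% of all genes, where 0.478% were lower. The median of the list was -0.31. T cell receptor signalling had a share of calls near that of all genes, 2.38%. Of 42 genes of T cell receptor signalling 0 were higher and 1 lower (4 and 1 without replicate 2), with a median of -0.11; the one was Themis, which tunes receptor signals during thymic selection, at 7.89, 7.79 and 8.18 against 9.46 (difference -1.51, SE 0.19, adjusted p = 0.012), with 3 further probe sets between -1.66 and -1.07.

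Cell cycle genes did not pass, and their values followed the arrays. Of 43 measured, 0 were called in limma's test, while 16 were higher and 1 lower at an unadjusted p under 0.05, 39 had a positive difference and the median was 0.74. Their mean was 7.80, 7.2 and 8.10 against 7.05, lowest of the EGFP-positive arrays in replicate 2, and without that array 14 were higher and 0 lower. Melk, a mitotic kinase, stood at 6.58, 6.16 and 6.54 against 5.34 (1.08, adjusted p = 0.085), and Mki67, the proliferation marker and taken up after its values were seen, at 9.45, 8.69 and 9.99 against 8.11 (1.27, 0.34; 1.61, 0.014 without replicate 2). Of 16 glycolysis genes 0 were called, with 3 higher and 1 lower at an unadjusted p under 0.05 and a median of -0.01; Slc2a3, a glucose transporter, came closest (1.38, 0.063). Of 33 genes of oxidative phosphorylation 0 were called and 0 reached an unadjusted p under 0.05, with a median of -0.04. The 22 ribosomal protein and 10 housekeeping genes had 0 calls, 1 lower each at an unadjusted p under 0.05, and medians of -0.05 and -0.01.

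Immediate-early and heat shock genes, which respond within minutes to stimulation or handling, divided the EGFP-positive arrays. Of 28 measured 0 were called in limma's test, with 2 higher at an unadjusted p under 0.05, a median of 0.29 and means of 10.59, 9.69 and 10.65 against 9.75; without replicate 2, 5 were higher. Among all genes, 83 had a range of at least 2 over the 3 EGFP-positive arrays, and replicate 2 was the lowest in 72 and the highest in 7 of them. Of these 83 genes 2 were called, Ctla4 and Plagl1. Examples taken up after their values were seen were Fosb, an AP-1 subunit (8.68, 4.45 and 9.08 against 6.15), Bhlhe40, an activation-induced repressor (11.73, 7.99 and 11.94 against 6.96), Klf4 (9.01, 5.32 and 9.01 against 6.48) and, in the opposite sense, the heat shock protein Hspa1b (9.11, 10.75 and 7.74 against 7.47). Nr4a3, an orphan nuclear receptor induced by the T cell receptor, stood at 11.18, 8.35 and 11.31 against 7.63 (2.64, SE 1.08, adjusted p = 0.49; 3.61, 0.0093 without replicate 2). Apoptosis genes had 0 calls of 24, 8 higher at an unadjusted p under 0.05 and 4 called higher without replicate 2; Pmaip1, the death gene Noxa, stood at 9.89, 7.70 and 9.74 against 5.25 (3.86, 0.10; 4.57, 0.0024 without replicate 2).

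**Figure D4:**
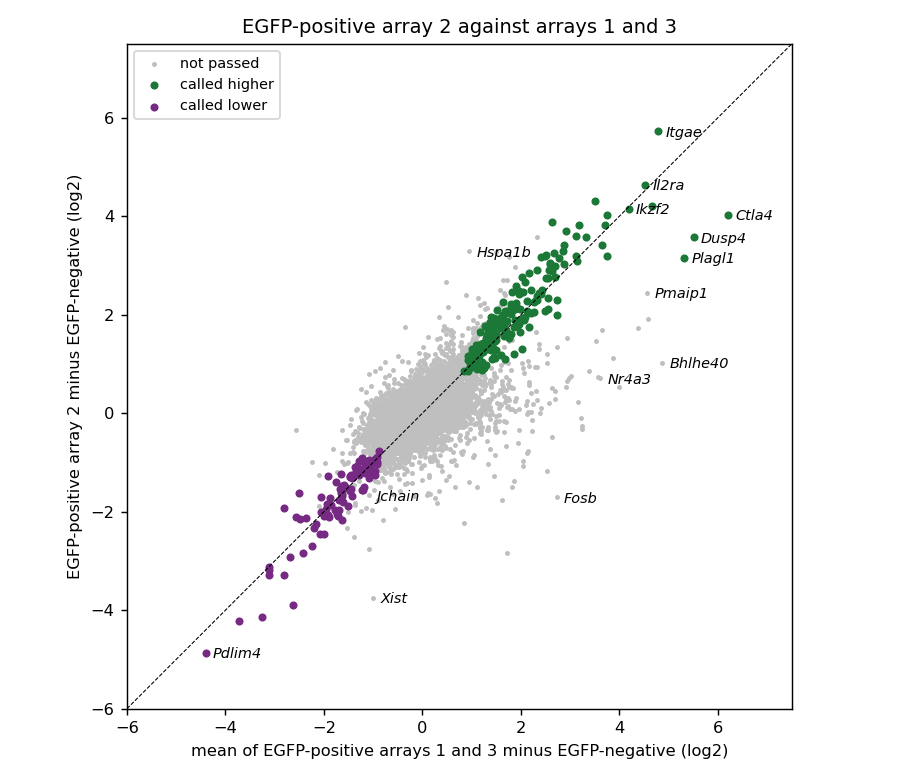
Each point is 1 gene, with the mean of EGFP-positive arrays 1 and 3 minus the EGFP-negative array on the horizontal axis and array 2 minus the EGFP-negative array on the vertical axis (both log2); the dashed line marks equal differences. Ikzf2, Il2ra and Pdlim4 lie on or near the line, Ctla4, Dusp4, Bhlhe40 and Fosb lie below it, and Hspa1b lies above it.

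Whether the EGFP difference differed with the allele was tested as the difference between the 2 alleles' differences, each against its own EGFP-negative array. In limma's fit 12 of 18193 genes passed (0.066%), and 11 of these were among the 273 called for the WT allele. Ikzf2 differed by 4.18 for the WT and by 0.63 for the mutant allele (difference 3.55, SE 0.21, adjusted p = 0.0044): the mutant EGFP-positive arrays stood at 12.12, 12.11 and 12.09, close to the WT ones, and the mutant EGFP-negative array at 11.48 against 7.98. In Tnfrsf4 (3.41 and 0.79), Cd83 (4.51 and 0.85) and, taken up after its values were seen, Tiam1, a Rac activator (3.13 and 0.57), the EGFP-positive arrays were likewise close between alleles and the EGFP-negative arrays were not. Tnfrsf4 stood at 8.43 in the WT and 11.15 in the mutant EGFP-negative array, and Cd83 at 6.10 and 9.90. Il2ra differed by 4.56 and by 1.72 (difference 2.85, 0.045). Cyp4f18 ranged from 4.23 to 4.51 in the EGFP-positive arrays of the mutant allele, with 4.29 in their negative array (3.28 and 0.07). Each of these values rests on 1 negative array per allele. The 18 probe sets called in this test became 2 or 3 when any EGFP-positive array other than WT replicate 2 was left out, and 85 without that one. Foxp3 and Ikzf2 passed in 10 of 12 alternatives and Tiam1 in 5, and Il2ra, Tnfrsf4 and Cd83 in 3.

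**Figure D5:**
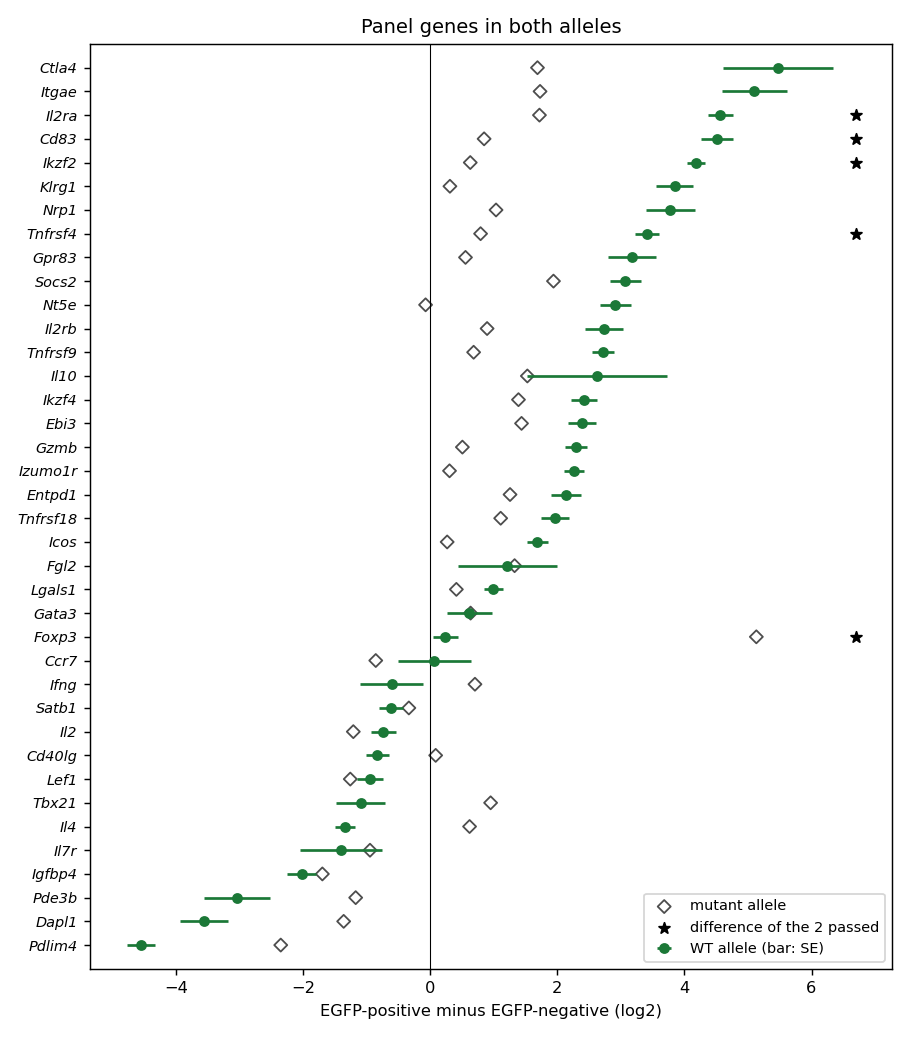
EGFP-positive minus EGFP-negative difference (log2) of the 38 measured panel genes for the WT allele (green circle, bar: SE from the fit) and the mutant allele (open diamond); stars mark genes whose 2 differences were called different (adjusted p below 0.05). Most WT circles lie farther from 0 than the diamonds, by 3.55 for Ikzf2, and Foxp3 lies the other way, at 0.24 and 5.13.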

How the data were processed

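Sorted mouse CD4+ T cells were profiled on Affymetrix arrays, 1 per sample, after RNEasy extraction and biotin labelling, per the labels' protocols. The deposited file gives linear-scale intensity per probe set, which the authors obtained by RMA (submitters' processing notes). RMA compresses differences at low intensity, and no detection calls were used here. Log2 was taken without a pseudocount. Of 45101 probe sets, 64 controls were dropped and the other 45037 were tested, with no filter; 34945 had 1 gene symbol in the platform annotation, 932 several and 9160 none, which gave 18193 genes.

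A mean per group was fitted to all 8 arrays with limma 3.58.1 (R 4.3.3), with two-sided tests and p-values adjusted by Benjamini-Hochberg across the 45037 probe sets. Its 4 residual degrees of freedom, beside 3.72 prior ones from eBayes, came from the EGFP-positive groups, so the model gives the lone EGFP-negative array the same variance as them. An exact permutation test of 3 arrays against 1, with its one-sided p multiplied by 2, cannot give a p below 0.5. The fit was run on simulated data, with 50 probe sets changed at each size. It recovered 20% of those changed by 1 log2 unit, 78% by 2, 90% by 3 and 98% by 4, with 5 false calls. Each probe set's spread was simulated as equal in all arrays, so this cannot test whether the lone EGFP-negative array has that variance.

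Genes named were a panel of 40 symbols, 38 measured, the 15 highest and 15 lowest called genes with all 3 arrays on 1 side, and per list up to 4 called members by size or, where none was called, up to 2 with the smallest p. The 40 lists held 690 symbols, 619 measured. Members and lists were chosen with earlier results of these data known. Alternatives were other array sets, an intensity filter, repeated quantile normalization, an offset of 16, trended robust eBayes and the title digits as a block; 3 list counts (without replicate 2, without replicate 3, and without genes named earlier) were added after seeing the data.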

Additional observations from a re-analysis of the deposited data

Results flagged for a closer look

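In all, 9 genes named above differed between the alleles in their EGFP-positive minus EGFP-negative difference by limma's interaction test. The WT difference minus the mutant difference was 3.55 for Ikzf2, 3.67 for Cd83, 3.26 for Arhgap20, 3.21 for Cyp4f18, 2.85 for Il2ra and 2.62 for Tnfrsf4. It was -4.90 for Foxp3, -3.52 for Trgv1 and -2.89 for Lrrc75b. Adjusted p was 0.0044 for Foxp3 and Ikzf2 and 0.045 for the other 7. Trgv1 stood at 7.89 in the WT and 5.57 in the mutant EGFP-negative array, and its difference was -2.41 for the WT and 1.11 for the mutant allele. Lrrc75b stood at 7.65 in the WT EGFP-negative array and between 4.33 and 4.89 in the other 7 arrays. Foxp3 differed by 0.24 for the WT and by 5.13 for the mutant allele. Each difference rests on 1 EGFP-negative array per allele. No group had the 4 samples needed to look for single outlying arrays.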

How the results depend on the processing

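Against 496 probe sets called (318 higher, 178 lower), leaving out single arrays of either allele gave 259 to 1193 (159 to 841 higher, 100 to 352 lower). The highest counts came without WT EGFP-positive replicate 2. With the 4 WT arrays only there were 125 (81 and 44), with the title digits as a block 83 (60 and 23), and with WT EGFP-positive replicate 1 alone 271 (201 and 70). The intensity filter, repeated normalization, the offset and trended robust eBayes gave 440 to 530. The 18 probe sets of the interaction became 2 to 85 without single arrays, 3 with the filter, 4 with the offset, 55 with trended robust eBayes, and 0 with the block or with replicate 1 alone. Directions turned only in genes that were not called: Ccr7 (0.07) differed by -0.21, 0.58 and -0.18 without WT EGFP-positive replicate 1, 2 or 3, Cd8a (-0.32) by -0.53 to 0.04 without single arrays, 0.25 with the block and 0.08 with replicate 1 alone, and Il17a (-0.18) by -0.28 to 0 without single arrays. The cause of these changes was not tested. Of the 65 named genes called, 48 kept their call without any single EGFP-positive array, and 22 under each of the 13 alternatives; 22 of the 48 lost it with the block and 17 with the WT arrays only. The labels give no replicate numbers, so the title digits, which are shared across alleles, were the one block that could be fitted; they tie replicate 1 to both EGFP-negative arrays, and no EGFP-negative array shares the digits of replicates 2 and 3. Low signals, as in Foxp3, Il2 and Il4, carry no detection call, so their size is the least certain.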

Other observations

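Some further called genes were read after their values were seen. Tiam1 (10.78, 10.66 and 10.64 against 7.56), Prnp, the prion protein gene (8.93, 9.08 and 9.10 against 5.90), and Rragd, a GTPase of nutrient sensing (7.64, 8.18 and 7.57 against 4.92), were higher by 3.13, 3.14 and 2.88. Axl, a receptor kinase, was higher by 2.92, and the membrane restriction factors Ifitm3 and Ifitm2 by 2.62 and 2.03. Igf1r, the receptor for insulin-like growth factor 1, was higher by 1.69, while Igfbp4, which binds that factor, was lower by 2.03 as given above. Downward, the neurotrophin receptor Ntrk3 differed by -2.24, the DNA demethylase Tet1 by -1.86, the IL-36 receptor chain Il1rl2 by -2.19 and the kinase Pdk1, which restrains pyruvate oxidation, by -1.64. Limma's adjusted p was 0.00048 for Tiam1, 0.0022 for Prnp and Ntrk3, 0.0035 for Rragd, 0.02 for Axl, 0.0031 for Ifitm3, 0.018 for Ifitm2, 0.005 for Igf1r, 0.0091 for Tet1, 0.0057 for Il1rl2 and 0.0066 for Pdk1. Tiam1, Prnp, Ntrk3 and Ifitm3 passed in 13 of 13 alternatives, Rragd in 12, Igf1r, Tet1, Il1rl2 and Pdk1 in 11, Axl in 9 and Ifitm2 in 7, and the highest adjusted p was 0.12 for both Axl and Ifitm2.

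Among the genes with a wide range across the EGFP-positive arrays, 5 known from tissue macrophages were picked after their values were seen. C1qa, a complement subunit, stood at 6.6, 5.49 and 7.96 against 5.07, the iron exporter Slc40a1 at 7.02, 5.38 and 8.25 against 4.66, the ficolin Fcna at 7.61, 6.10 and 8.95 against 6.07, the mannose receptor Mrc1 at 6.15, 5.24 and 7.29 against 4.96 and Vcam1 at 7.71, 6.6 and 8.65 against 6.44. None of these 5 was called (limma adjusted p between 0.53 and 0.69), and all were highest in replicate 3 and lowest of the EGFP-positive arrays in replicate 2, as was Csf1r. Other myeloid markers were mixed. Adgre1 followed this order, at 6.13, 5.99 and 7.06. Cd14 (5.43, 5.74 and 6.47) and Cebpa (6.09, 6.60 and 6.87) were also highest in replicate 3 but lowest in replicate 1. Csf3r (5.03, 5.47 and 5.2) was highest in replicate 2. The mean of the 21 myeloid markers was 6.03, 6.03 and 6.46.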
